A study of Mus musculus with 16 samples.

Results

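Fatty acid oxidation is described here through 37 genes, chosen by name to cover the path of a fatty acid through the mitochondrion: activation and deactivation as a coenzyme A ester, entry by the carnitine shuttle, the beta-oxidation spiral, the transfer of its electrons, and the PPAR regulators of the pathway. The genes were taken by name and not by a cut on measured values, with earlier results of these data known. Of the 37 genes, 34 had a probe set (the group of probes that reports 1 transcript) with a single gene symbol, of 22180 genes with one. All 34 passed the filter on dim probe sets, among 13601 genes tested in the series. Acsl1, the main muscle acyl-CoA synthetase, had no such probe set, and Acsl3 and Cpt1b, the muscle form of carnitine palmitoyltransferase 1, had only probe sets shared with other genes. These 3 genes are not analysed here.

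Fatty acids are burned in mitochondria 1 turn of a spiral at a time, each turn shortening the chain and passing electrons to carrier proteins and to the respiratory chain. Skeletal muscle is among the tissues that rely most on this pathway, and its rate is gated at the outer membrane, where carnitine palmitoyltransferase 1 makes acylcarnitine. PPARs are nuclear receptors that bind fatty acids and switch on many genes of the pathway together with the coactivators of the PGC-1 family.

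Expression was measured in whole gastrocnemius, a calf muscle made mostly of fast fibres, with 1 array for each of 16 male FVB/n mice. KO mice (n = 8) carried Mx1-Cre and floxed alleles (flanked by loxP sites, so that Cre can delete them) of Foxo1, Foxo3 and Foxo4, and WT mice (n = 8), though called wild type in the labels, were MxCre-negative littermates with the same floxed alleles. In both groups 3 injections of pI:pC, a double-stranded RNA that sets off interferon, were given at 4 to 5 weeks of age, a high-fat diet (58% fat, the rest being 16.4% protein and 25.5% carbohydrate) was fed for 8 weeks, starting when the mice were 7 to 8 weeks old, and muscle was taken at 16 weeks. The comparison asks how these genes differed in muscle under high-fat feeding after deletion of the FoxO genes, which encode transcription factors. The labels call the deletion directed at the endothelium, while the Mx1 promoter responds to interferon, and which cells recombined was not tested. Only KO mice carried Cre, so the effect of carrying Cre and that of losing FoxO cannot be told apart. In whole muscle, fewer cells of a type and less RNA per cell cannot be told apart. Values are log2 expression, and differences are KO minus WT on that scale.

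All 8 muscle fibre markers were bright, with a mean level of 12.64 to 12.81 in KO mice and 12.69 to 12.78 in WT mice. Foxo3 averaged 5.88 ± 0.40 in KO mice and 5.38 ± 0.16 in WT mice, Foxo1 7.36 ± 0.36 in KO mice and 7.29 ± 0.06 in WT mice, and Foxo4 7.18 ± 0.26 in KO mice and 7.42 ± 0.15 in WT mice (SD, n = 8 each). None of these differences passed the threshold, with limma adjusted p-values of 0.0762, 0.804 and 0.236, and whether the probes lie in the deleted exons is not known here. Liver transcripts stood apart in some arrays: the albumin transcript Alb was above 9 in KO mice 1, 2, 4 and 5 and in WT mice 2 and 7. None of the 5 tested of 10 hepatocyte markers passed, with list means from 4.68 to 8.51 in KO mice and from 4.58 to 8.05 in WT mice. Leaving out these 6 mice moved many values: of the 34 genes 21 then had a difference more than 1.5 times its size in all mice and 6 turned in sign, and the main ones are given beside the results. Across all genes tested the median difference was 0.00.

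Promoters are shown for the gene that changed and for a gene with a PPAR-type repeat, as read from the RefSeq table of GRCm38.p6, which spans 250 bases before to 50 after each listed start. The table held 33 promoters of 29 of the 37 genes. Acot11, the member that changed, has a pair of listed starts, both on the minus strand, at chr4:106804958-106805257 and chr4:106799782-106800081. Ucp3 lies on the plus strand at chr7:100472741-100473040, and the capitals in it mark a direct repeat.
Acot11, first listed start: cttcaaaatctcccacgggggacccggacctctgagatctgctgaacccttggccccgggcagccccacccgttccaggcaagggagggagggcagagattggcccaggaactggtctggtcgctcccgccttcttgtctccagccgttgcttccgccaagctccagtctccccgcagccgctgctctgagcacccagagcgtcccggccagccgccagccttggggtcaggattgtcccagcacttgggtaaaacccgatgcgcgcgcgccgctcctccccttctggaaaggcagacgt
Acot11, second listed start: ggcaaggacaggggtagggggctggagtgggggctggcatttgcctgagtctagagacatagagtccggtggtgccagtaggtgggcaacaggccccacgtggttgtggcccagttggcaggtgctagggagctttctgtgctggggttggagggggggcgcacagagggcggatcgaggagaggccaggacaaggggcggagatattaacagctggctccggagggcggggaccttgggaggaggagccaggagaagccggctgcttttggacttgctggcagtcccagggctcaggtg
Ucp3: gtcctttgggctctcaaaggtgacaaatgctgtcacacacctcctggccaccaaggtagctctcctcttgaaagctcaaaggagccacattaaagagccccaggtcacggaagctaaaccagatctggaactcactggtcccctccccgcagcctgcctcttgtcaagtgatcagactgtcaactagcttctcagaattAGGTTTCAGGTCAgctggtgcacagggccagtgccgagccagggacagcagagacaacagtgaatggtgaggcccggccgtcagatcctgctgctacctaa

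The PPAR response element was searched as a direct repeat of AGGTCA with 1 base between, on both strands. No member promoter held it exactly, against 13 of all 32851 promoters (0.0396%). With up to 2 mismatches it was found in 3 of the 33 member promoters (9.09%), and in 3.86% of all promoters. Besides Ucp3, with AGGTTTCAGGTCA at bases 200 to 212 of the window, these were Echs1, with AGGTCACGGGTCC at bases 168 to 180, and Etfa, with TTACCTTTGCCCT at bases 174 to 186 as read on the gene's own strand, the repeat lying on the other. The FoxO core TGTTTAC was in none of the 33 and in 3.65% of all promoters. These matches describe letters in a window, and no binding was measured.

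Acot11 was the 1 of 34 genes whose level changed at a limma adjusted p under 0.05, and it fell. Across all genes tested 1.83% passed this threshold in either direction and 0.301% passed it as lower in KO mice. An unadjusted p under 0.05 was found for 4 of the 34 genes (Acot11, Acsl5, Cpt2 and Cpt1a), against 17.3% of all genes tested. These counts, 1 and 4 of 34 genes, are small and are not read as different from the shares of all genes. In the map of every gene by mouse these 4 genes carry the clearest contrast between KO and WT mice, and most of the others differ more from mouse to mouse than between the groups.

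**Figure D1:**
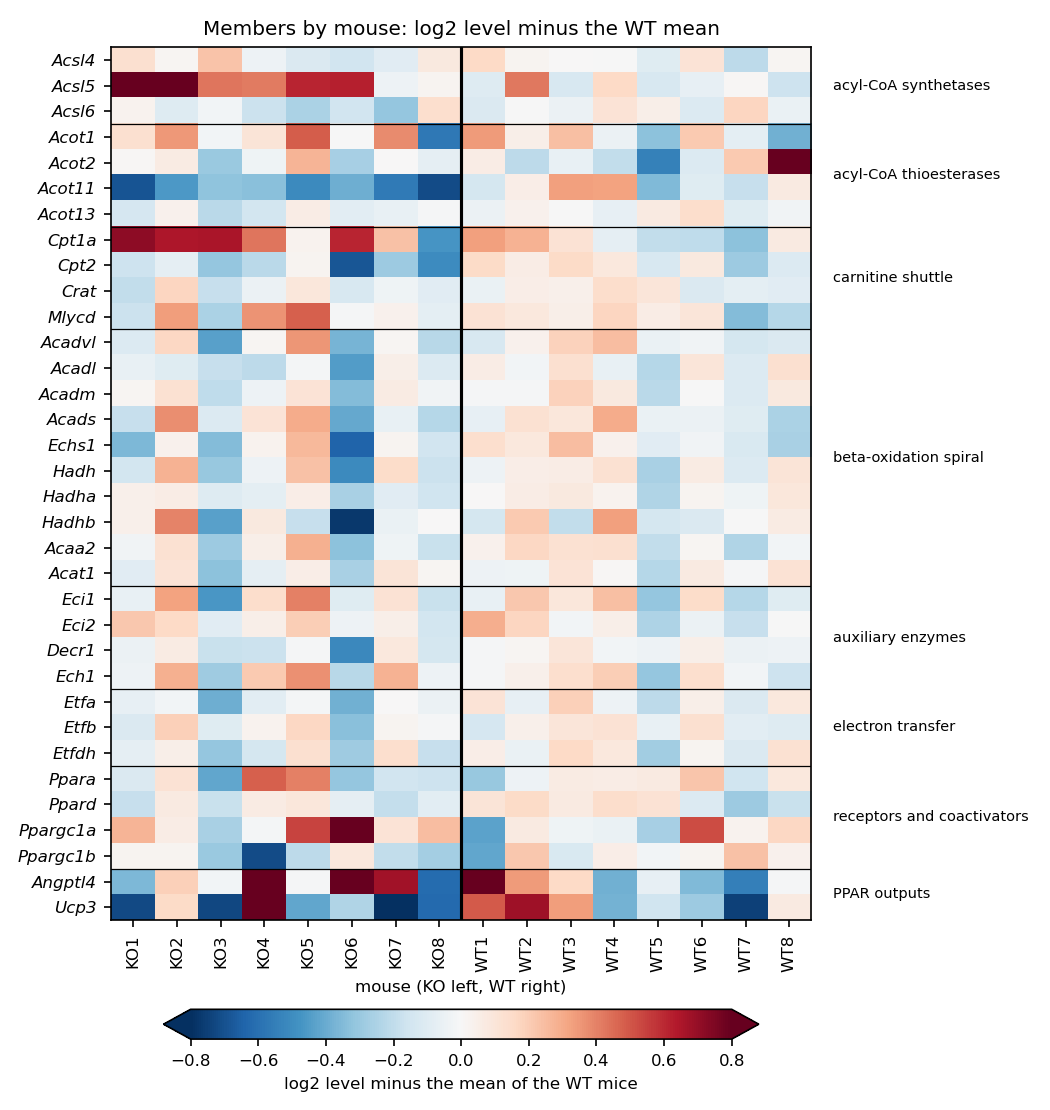
Level of each of the 34 measured genes (rows, grouped by role) in each mouse (columns, the 8 KO mice left of the line and the 8 WT mice right of it), as log2 level minus the mean of the WT mice. Colours run from blue (lower) to red (higher) and are saturated beyond 0.8. Acot11 is blue in all 8 KO mice, and the columns of KO3 and KO6 are blue across most of the beta-oxidation genes.

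Acot11 encodes an acyl-CoA thioesterase, which cleaves the coenzyme A ester and releases the free fatty acid, and is best known from mouse brown fat. Its level had a lowest, median and highest value of 5.10, 5.33 and 5.49 in KO mice, against 5.46, 5.79 and 6.15 in WT mice. The groups nearly separated: 6 of 8 KO mice lay below every WT mouse, and only WT mouse 5 lay within the KO range. The mean was 5.32 ± 0.15 in KO mice and 5.81 ± 0.24 in WT mice (SD, n = 8 each). Acot11 was rather dim: array medians ran from 4.43 to 4.61. It was above the median in all 16 arrays but did not pass a filter at the 75th percentile. A further probe set that reports Acot11 together with another gene was not used. The difference was -0.50 (SE 0.10, 95% interval -0.70 to -0.29, limma adjusted p = 0.0146). This is a ratio of 0.708 (0.615 to 0.815), and an exact two-sided permutation test gave p = 0.000466. The call held whichever single mouse was left out, with differences from -0.55 to -0.45. Without the 6 mice with high Alb the difference was -0.52 and the call was lost (limma adjusted p = 0.244, 4 KO against 6 WT mice).

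Acot11 lies on chromosome 4 beside other genes that fell. In the RefSeq gene order the 5 tested neighbours on one side were Prkaa2 at -0.93, Plpp3 at -0.55, Usp24 at -1.03, Ttc22 at 0.08 and Ttc4 at -0.64, of which all but Ttc22 (limma adjusted p = 0.716) passed the threshold. With the high-Alb mice left out Prkaa2 at -0.94 and Usp24 at -1.05 still passed, and Plpp3 at -0.64 and Ttc4 at -0.58 did not (limma adjusted p = 0.164 and 0.0912). On the other side Ssbp3 was at -0.17 (limma adjusted p = 0.189), and Mrpl37, Cyb5rl, Tceanc2 and Tmem59 lay between -0.09 and 0.07. The fall of Acot11 was thus the smallest of the 5 that passed in this stretch. For Prkaa2, Plpp3, Usp24 and Ttc4 all 8 KO mice lay below every WT mouse, against 6 of 8 for Acot11. Why these neighbouring genes fell together was not tested. Cpt2 lies on the same chromosome, with 15 tested genes between it and Acot11, a stretch chosen after the values were seen. None of the 15 passed the limma threshold, 2 had an unadjusted p under 0.05, and their differences ran from -0.19 to 0.07.

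**Figure D2:**
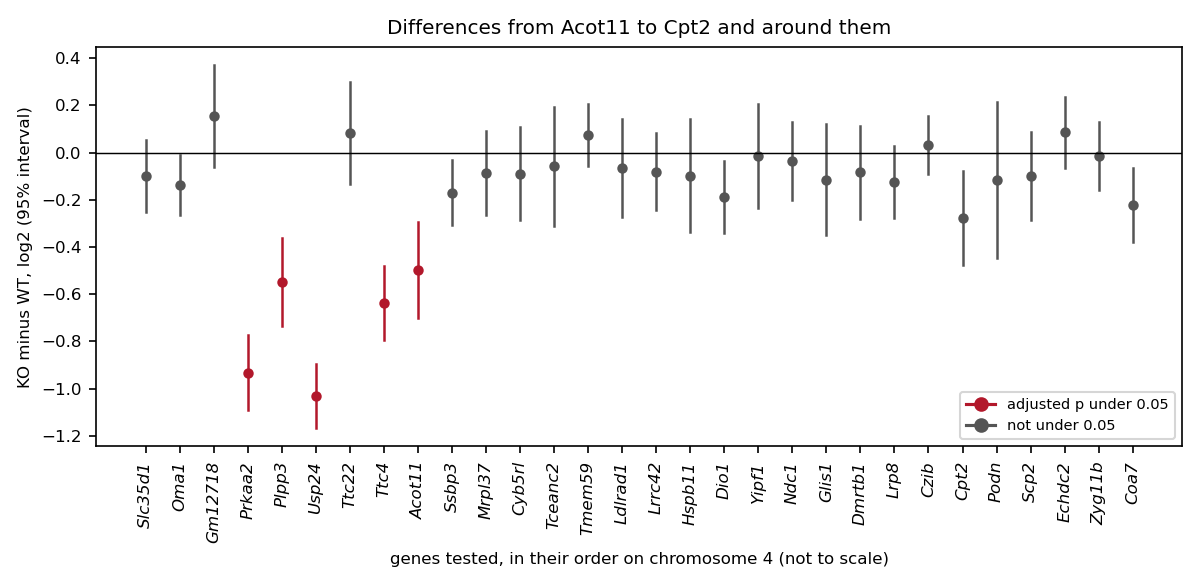
KO minus WT difference (log2, vertical axis, points with 95% intervals) for 30 tested genes of chromosome 4 in their annotated order, not to scale. Red marks an adjusted p under 0.05. The red points end at Acot11, Cpt2 lies further along at -0.28 and is not red, and the 15 genes between them lie from -0.19 to 0.07.

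The other thioesterases did not pass the threshold. Acot2, the mitochondrial form for long chains, measured 10.27 ± 0.18 in KO mice and 10.31 ± 0.41 in WT mice (difference -0.04, SE 0.14). Its wide WT spread came with WT mouse 8 at 11.16, against at most 10.53 in the other WT mice, and without that mouse the difference was 0.08. Acot1, the cytosolic relative of Acot2, was dim, above its array median in 8 of 16 arrays, at 4.53 ± 0.33 in KO mice and 4.43 ± 0.26 in WT mice. Acot1 and Acot2 are close copies, and how far their probes cross-hybridise was not analysed here. Acot13, a thioesterase of the outer mitochondrial surface, differed by -0.07 (SE 0.06).

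Among the acyl-CoA synthetases, which attach coenzyme A to a fatty acid so that it can be used, Acsl5 had the largest difference. Its level was 5.85, 6.41 and 6.81 (lowest, median and highest) in KO mice, against 5.72, 5.80 and 6.31 in WT mice. KO mice 1, 2, 3, 5 and 6 lay above every WT mouse, KO mouse 4 lay at the top of the WT range, and KO mice 7 and 8 lay well inside it. The difference of 0.47 (SE 0.13, 95% interval 0.20 to 0.74) did not pass (limma adjusted p = 0.0694, exact two-sided permutation p = 0.00606). It passed when KO mouse 7, KO mouse 8 or WT mouse 2 was left out, at 0.55, 0.54 and 0.53 (limma adjusted p = 0.0330, 0.0189 and 0.0475), and was 0.33 without the mice with high Alb (limma adjusted p = 0.360). Acsl4, which prefers arachidonic acid, differed by 0.01 (SE 0.07), a sign that turned under several settings. Acsl6 differed by -0.11 (SE 0.07), with 4 of 8 KO mice below every WT mouse, and its dimmer second probe set differed by -0.15. The exact two-sided permutation test, unadjusted, gave p = 0.116 for the first Acsl6 probe set and p = 0.0387 for the second. The 7 measured genes of activation had a median difference of -0.04.

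The carnitine shuttle held opposite differences at its entry and exit steps, neither of them past the threshold. Cpt1a, the widely expressed form of the outer-membrane enzyme that starts the shuttle, measured 6.12, 7.12 and 7.31 (lowest, median and highest) in KO mice, against 6.27, 6.60 and 6.93 in WT mice. It was above every WT mouse in 5 of 8 KO mice, and KO mouse 8 was the lowest of all 16. The difference was 0.35 (SE 0.15, 95% interval 0.04 to 0.67, limma adjusted p = 0.236, exact two-sided permutation p = 0.0542). Without KO mouse 8 it was 0.47 and passed (limma adjusted p = 0.0294). It was 0.25 without the mice with high Alb and 0.32 with hepatocyte markers as a covariate (limma adjusted p = 0.634 and 0.327).

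Cpt2, the inner-membrane enzyme that hands the acyl group back to coenzyme A, measured 7.96, 8.38 and 8.66 in KO mice, against 8.34, 8.70 and 8.79 in WT mice. The groups overlapped, with 3 of 8 KO mice below every WT mouse and none above the highest WT mouse. The difference was -0.28 (SE 0.10, 95% interval -0.48 to -0.08, limma adjusted p = 0.144, exact two-sided permutation p = 0.0120). With the high-Alb mice left out it was -0.49 (limma adjusted p = 0.167). Crat, carnitine acetyltransferase, which buffers acetyl groups, differed by -0.05 (SE 0.07). Mlycd, which breaks down malonyl-CoA, the inhibitor of carnitine palmitoyltransferase 1, differed by 0.09 (SE 0.11). The 4 measured shuttle genes had a median difference of 0.02, or -0.12 without the mice with high Alb.

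**Figure D3:**
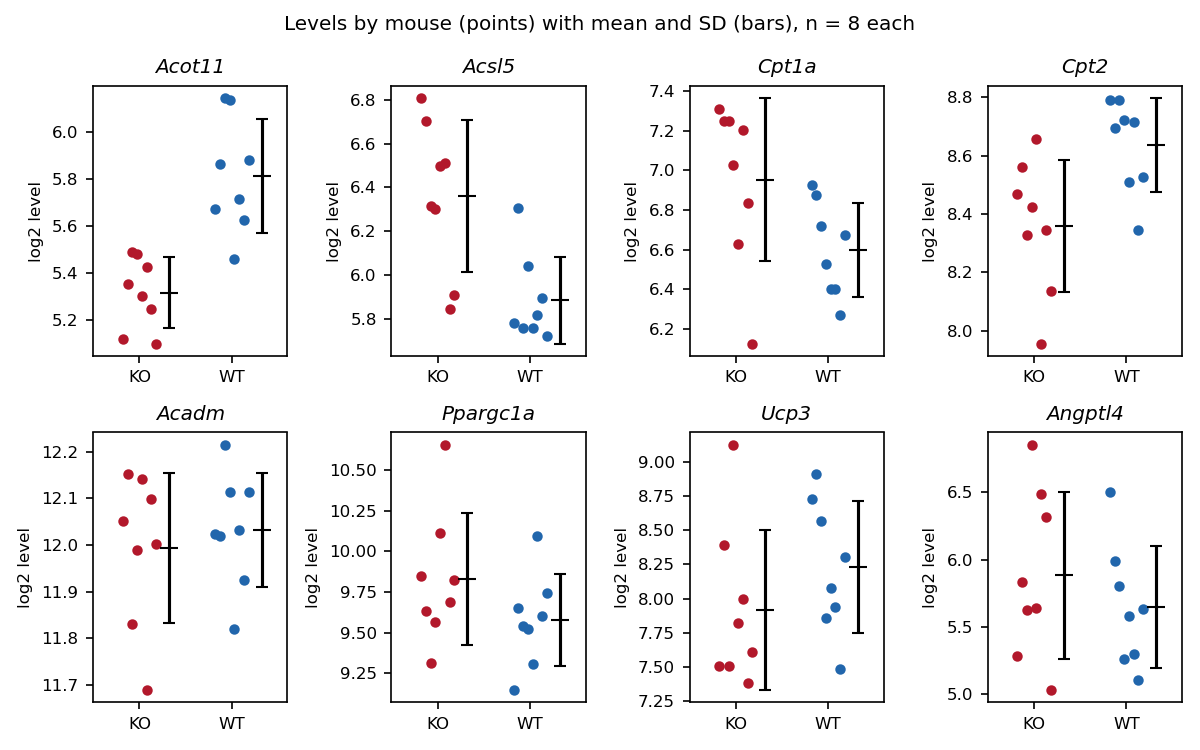
Log2 level of 8 genes (1 panel each, own vertical axis) in the KO mice (red, left) and the WT mice (blue, right), with 1 point per mouse and bars for the mean and SD (n = 8 each). Acot11 is nearly separated between the groups, Acsl5 and Cpt1a have most KO mice high and 1 or 2 low, and Acadm, Ppargc1a, Ucp3 and Angptl4 overlap fully or nearly so.

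Transcripts of other cell types differed between the same muscles. Of 13 endothelial markers 9 rose, where 1.83% of all genes tested passed in either direction, with a mean level of the list from 7.23 to 7.87 in KO mice and from 7.01 to 7.37 in WT mice. Of 10 macrophage markers 2 rose (C1qa and Itgam). The list means ran from 6.50 to 7.91 in KO mice and from 6.27 to 7.04 in WT mice. Among 8 adipocyte markers Fabp4 alone passed, as higher in KO mice. The list means ran from 6.03 to 7.86 in KO mice and from 5.96 to 6.91 in WT mice. Fabp4 was far brighter, at 11.88 in KO mice and 11.39 in WT mice, and which cells held its transcript was not tested. In all, 7 of the 8 differed upward and Lep downward, at -0.16. All 5 Schwann cell markers tested differed upward without passing, 3 of them with an unadjusted p under 0.05, among them Pmp22 at 1.03 (limma adjusted p = 0.126), with list means from 5.96 to 7.55 in KO mice and from 5.88 to 7.43 in WT mice. Without the mice with high Alb 1 endothelial marker and no macrophage or adipocyte marker passed (4 KO against 6 WT mice), and the median difference was 0.29 for the endothelial list, against 0.52 with all mice, and 0.56 for the macrophage list, against 0.52. No list had a defining marker at 0, as an RMA value has no zero. The part of these cells in the values of Acot11, Acsl5, Cpt1a and Cpt2 was not tested.

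In the beta-oxidation spiral none of the 10 enzymes passed the limma threshold and none had an unadjusted p under 0.05, yet all 10 mean differences were below 0, from -0.14 to -0.03. All 10 intervals crossed 0 and together ran from -0.39 to 0.19. The acyl-CoA dehydrogenases take the first step, each for its own chain length. Acadvl for very long chains differed by -0.07 (SE 0.10), Acadl for long chains by -0.13 (SE 0.07), Acadm for medium chains by -0.04 (SE 0.07) and Acads for short chains by -0.03 (SE 0.11). Acadl, with the lowest adjusted p of the spiral (0.356, limma), measured 11.08, 11.43 and 11.58 (lowest, median and highest) in KO mice, against 11.30, 11.55 and 11.66 in WT mice. Of its KO mice 1 lay below every WT mouse.

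The steps of hydration, oxidation and cleavage had differences of the same small size. Echs1, the short-chain enoyl-CoA hydratase, differed by -0.14 (SE 0.11) and Hadh, the short-chain hydroxyacyl-CoA dehydrogenase, by -0.06 (SE 0.10). Hadha, which carries the first activities of the trifunctional protein, differed by -0.07 (SE 0.06), and Hadhb, the thiolase subunit of the same complex, by -0.12 (SE 0.13). The Hadhb probe set was dim, at 4.90 ± 0.35 in KO mice and 5.02 ± 0.19 in WT mice, and above its array median in 15 of 16 arrays. Hadha, of the same complex, read 12.21 in KO mice and 12.28 in WT mice. How well the Hadhb probe set reports its transcript was not tested. Acaa2, the thiolase that releases acetyl-CoA, differed by -0.05 (SE 0.09), and Acat1, the acetoacetyl-CoA thiolase, by -0.06 (SE 0.07).

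The enzymes that prepare unsaturated chains for the spiral had differences of both signs, none past the threshold. Eci1 and Eci2, enoyl-CoA isomerases that shift a double bond, differed by 0.02 (SE 0.11) and 0.05 (SE 0.08), both with the sign turned when arrays were centred on their median, and Ech1, the dienoyl-CoA isomerase, differed by 0.07 (SE 0.10). Decr1, the dienoyl-CoA reductase, measured 8.23, 8.65 and 8.83 (lowest, median and highest) in KO mice, against 8.70, 8.73 and 8.84 in WT mice. For Decr1 5 of 8 KO mice lay below every WT mouse, and the WT mice were close together. Its difference was -0.12 (SE 0.07, limma adjusted p = 0.436), and -0.058 without KO mouse 6, its lowest. Without the mice with high Alb all 4 were below 0, with Eci1 at -0.16, Eci2 at -0.060, Ech1 at -0.065 and Decr1 at -0.19.

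The electron transfer genes likewise gave no call. Etfa and Etfb, the subunits of the flavoprotein that collects electrons from the dehydrogenases, differed by -0.13 (SE 0.08) and -0.02 (SE 0.07). Etfdh, which passes these electrons to ubiquinone, differed by -0.08 (SE 0.08). Their median was -0.08, and that of the 14 beta-oxidation enzymes was -0.06.

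**Figure D4:**
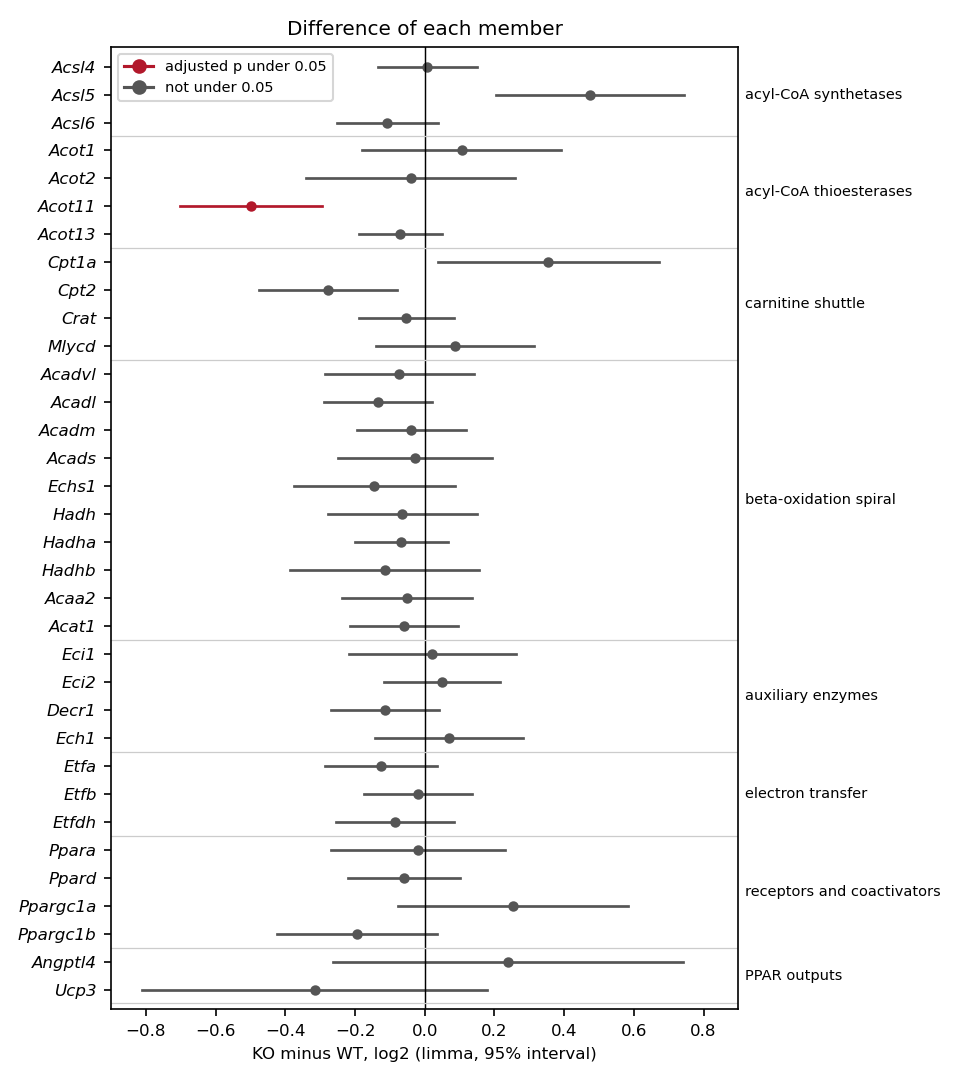
KO minus WT difference of the 34 measured genes (log2, horizontal axis, points with 95% intervals from limma), grouped by role from activation at the top to the PPAR outputs at the bottom. Red marks an adjusted p under 0.05. Acot11 alone is red, and all 10 points of the beta-oxidation spiral lie slightly left of 0 with intervals that cross it.

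Within single mice, the 17 enzymes of beta-oxidation and electron transfer tended to lie on the same side of the WT mean. The median over the 17 of each mouse's deviation from the WT mean was lowest in KO mouse 6 (-0.34) and KO mouse 3 (-0.29), then in WT mouse 5 (-0.21). It was highest in KO mouse 5 (0.16) and KO mouse 2 (0.12), then in WT mouse 3 (0.11). The KO mice therefore held both ends, and their range enclosed that of the WT mice. KO mouse 6 was the lowest of all 16 mice for 10 of the 17 enzymes and KO mouse 3 for 5. In KO mice 3 and 6 and in WT mice 5 and 7 none of the 17 enzymes was above its WT mean, while 15 were in KO mouse 2 and 15 in WT mouse 3. Enzymes of 1 mouse share an array and a piece of tissue, so these counts describe mice and are not replicates of a group.

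**Figure D5:**
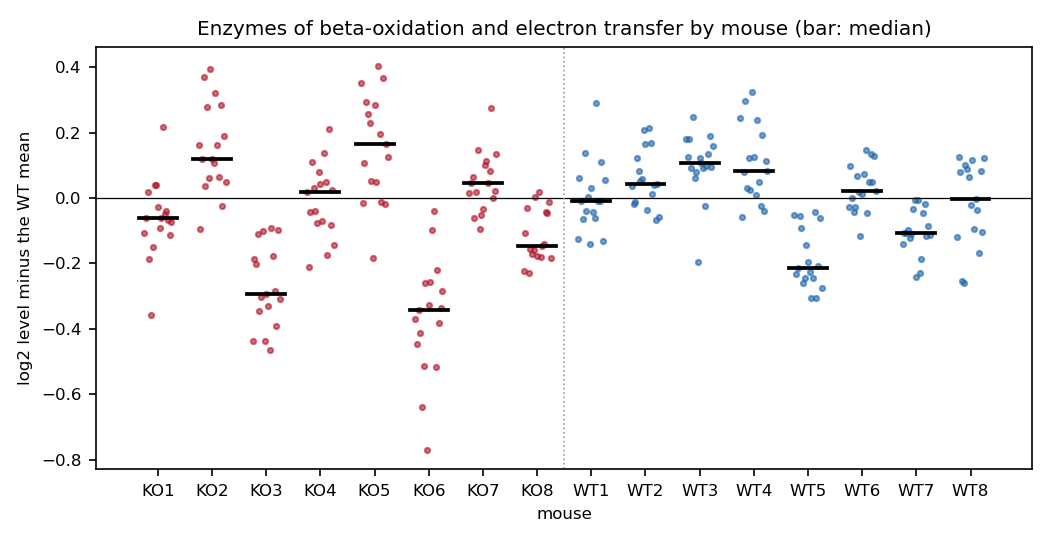
Deviation of the 17 enzymes of beta-oxidation and electron transfer from the WT mean (log2, vertical axis) in each mouse, 1 point per enzyme, with a bar at the mouse's median, KO mice in red on the left and WT mice in blue on the right. The medians run from -0.34 in KO6 to 0.16 in KO5, and from -0.21 in WT5 to 0.11 in WT3.

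The size of this negative median depended on which mice were counted. Without KO mouse 6 the differences of Acadm and Acads were above 0, 8 of 10 spiral enzymes were below 0, and the median of the 14 beta-oxidation enzymes was -0.02. Without the 6 mice with high Alb, which include the high KO mice 2 and 5 and leave in the low KO mice 3 and 6, all 17 enzymes were below 0. The spiral then ran from -0.29 for Echs1 to -0.12 for Acat1, with Acadvl at -0.27, Acads at -0.20, Hadh at -0.22 and Hadhb at -0.28, and Etfb was at -0.11. The median was then -0.19 for beta-oxidation and -0.19 for electron transfer, and 0 of 34 genes passed the limma threshold (4 KO against 6 WT mice). Slow fibres burn more fat than fast ones, and the slow fibre markers varied between the muscles, with a mean level of 7.70 to 9.41 in KO mice and 6.31 to 8.88 in WT mice and no marker of 10 past the threshold. WT mouse 5 and KO mouse 3, both low in the enzymes, had the lowest slow fibre levels of all mice, 6.31 and 7.70. KO mouse 6, the lowest in the enzymes, stood at 8.78. KO mouse 7, with the highest slow fibre level of 9.41, had an enzyme median of 0.045. By group 9 of the 10 slow fibre markers differed upward and 1 downward, with a median difference of 0.25. With the slow fibre level as a covariate 15 of the 17 enzymes were below 0 and none of them passed. The part of fibre type in the enzyme levels was not tested.

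Spread within the KO group was the wider one for most of these genes. The SD was larger in KO than in WT mice for 30 of 34 genes (88.24%), against 63.81% of all genes tested. The median SD over the 34 genes was 0.22 in KO mice and 0.16 in WT mice. Of the 34 differences, 24 were below 0 (70.59%), against 49.81% of all genes tested, with a median of -0.06. Without the mice with high Alb 30 of the 34 were below 0, with a median of -0.15, and without KO mouse 6 the count was 20, with a median of -0.017. With arrays centred on the median of the genes tested 27 of the 34 were below 0, with a median of -0.109. That centring moved the differences of all genes by a median of -0.053, so the size of this negative median depends on the scaling. The share of all genes below 0 is given here only for the reported fit. For 28 of the 34 genes the 95% interval lay within 0.5 log2 units of 0 and for 21 within 0.3, so larger changes of these genes were outside the intervals.

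The receptors and coactivators that govern the pathway did not pass the threshold either. Ppara, the PPAR of fatty acid breakdown, differed by -0.02 (SE 0.12), and Ppard, the form most abundant in muscle, by -0.06 (SE 0.08). Without the mice with high Alb Ppara was at -0.30 and Ppard at -0.15 (limma adjusted p = 0.306 and 0.486). Ppargc1a, the coactivator that drives mitochondrial genes, measured 9.32, 9.75 and 10.65 (lowest, median and highest) in KO mice, against 9.15, 9.57 and 10.10 in WT mice. The groups overlapped, with 2 of 8 KO mice above every WT mouse, and the difference was 0.25 (SE 0.16, limma adjusted p = 0.421). The highest value, 10.65, was that of KO mouse 6, whose oxidation enzymes were the lowest, and without this mouse the difference was 0.14. Ppargc1b, a related coactivator, measured 6.18 ± 0.26 in KO mice and 6.37 ± 0.20 in WT mice, a difference of -0.19 (SE 0.11, limma adjusted p = 0.366), or -0.12 without KO mouse 4.

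The PPAR outputs had the widest spread of the 34 genes in both groups. Ucp3, a muscle mitochondrial carrier that rises with fatty acid supply, measured 7.38, 7.72 and 9.12 (lowest, median and highest) in KO mice, against 7.49, 8.19 and 8.91 in WT mice. Most KO mice lay in the lower part of the WT range, while KO mouse 4 was the highest of all 16. The difference was -0.32 (SE 0.24, 95% interval -0.81 to 0.18, limma adjusted p = 0.515). Angptl4, a secreted inhibitor of lipoprotein lipase, measured 5.03, 5.74 and 6.85 in KO mice, against 5.10, 5.61 and 6.50 in WT mice, and differed by 0.24 (SE 0.24, limma adjusted p = 0.651). KO mouse 4 was highest for both genes, and without it Angptl4 differed by 0.099 and Ucp3 by -0.49. Angptl4 was at 0.15 without KO mouse 6 and at 0.36 without KO mouse 8 or WT mouse 1. Without the mice with high Alb, KO mouse 4 among them, the Ucp3 difference was -0.62 (limma adjusted p = 0.256).

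Other genes of lipid oxidation outside the 37 were read against the same shares of all genes tested, 1.83% past the threshold and 17.3% with an unadjusted p under 0.05. Of 42 such genes 32 were tested, none passed the limma threshold and 1 had an unadjusted p under 0.05, with a median difference of -0.02, or -0.15 without the mice with high Alb. That gene was Acaca, the acetyl-CoA carboxylase that makes malonyl-CoA, at 0.28 (SE 0.10, limma adjusted p = 0.145), and the lowest differences were those of Abcd2, a peroxisomal transporter of fatty acyl-CoA, at -0.21 (SE 0.13) and Oxct1, which uses ketone bodies, at -0.19 (SE 0.10). Of 41 further PPAR partners and PPAR target genes 36 were tested, 1 passed and 5 had an unadjusted p under 0.05, with a median of -0.01, or -0.097 without the mice with high Alb. The gene that passed was Prkaa2, an AMPK catalytic subunit gene and a neighbour of Acot11, which measured 9.86 ± 0.14 in KO mice and 10.79 ± 0.15 in WT mice. Pparg, the fat cell PPAR, differed by 0.50 (SE 0.14, limma adjusted p = 0.0751), and Fabp3, the muscle fatty acid binding protein, by -0.23 (SE 0.08, limma adjusted p = 0.126).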

How the data were processed

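Per the submitters' processing notes the authors ran RMA with oligo, and the deposited numbers are log2 levels, 1 for each probe set. RMA gives the single probes of all arrays a common distribution, which can hide a shift shared by all transcripts, and it compresses differences of dim probe sets. The deposited probe set values still differed in scale between arrays. Centring the arrays on the median of the genes tested moved the differences of all genes by a median of -0.053. Further quantile normalization moved them by a median of -0.025. The array's design and build, the scan dates and the tool versions are not known here. Each of the 16 arrays is a separate biological replicate per the labels, and their number limits the precision. Array medians ran from 4.43 to 4.61.

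The 41345 probe sets comprised 23521 with a single symbol in the platform annotation, which were used, 1814 with several and 16010 without any. A probe set was kept if above its array median in at least 8 of 16 arrays, and the brightest on average stood for its gene, which left 13601 genes. KO and WT mice were compared in R 4.3.3 with limma 3.58.1 (lmFit, eBayes), two-sided, with Benjamini-Hochberg adjustment over all genes tested and a threshold of 0.05. Single genes were also put through an exact permutation test (12870 splits of the mice, smallest possible p 0.000155). Intervals are 95% intervals. The procedure was tested on simulated data. Promoters, chromosomes and gene order come from RefSeq tables of GRCm38.p6, and figures were drawn with matplotlib 3.10.9.

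The 37 genes and the other lists were chosen with earlier results of these data known. All 37 were named by role, those with an unadjusted p under 0.05 in full, with the 5 tested genes on each side of a changed gene and up to 3 genes in each direction of each other list, of which some are printed. The text's values of single mice beyond this, and the stretch from Acot11 to Cpt2, were picked after the values were seen. KO and WT mice share replicate numbers. Deviations of same-numbered mice correlated from -0.0828 to 0.25, with 4 of 8 above 0.1, which does not settle whether the mice were paired. The reported fit has no block, and counts with a block are given below. Alternatives were other filters, scalings, variance models and thresholds, array weights, the block, marker levels as covariates and leaving out each mouse. Leaving out the 6 mice with Alb above 9 was added after the data were seen.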

Additional observations from a re-analysis of the deposited data

Results flagged for a closer look

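In 4 of 68 groups of 8 mice (34 genes, KO and WT) 1 mouse stood apart from the rest, with a gap to the nearest mouse above Dixon's 95% critical share of the group's range, a limit that chance passes in about 1 in 20 groups. Decr1 read 8.23 in KO mouse 6, against 8.57 to 8.83 in the other KO mice. Ppargc1b read 5.66 in KO mouse 4, against 6.08 to 6.46 in the other KO mice. WT mouse 5 stood apart for Hadha, at 12.04 against 12.24 to 12.37 in the other WT mice, and for Acat1, at 10.95 against 11.13 to 11.29.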

How the results depend on the processing

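The count of changed members was 1, and it was 0 with a filter at the 75th percentile, which does not test Acot11, 0 without the mice with high Alb, 2 at an adjusted p under 0.10, and 1 to 3 when single mice were left out. The count of changed genes, 249, was 137 with no filter, 145 with slow fibre markers and 134 with hepatocyte markers as a covariate, 505 at an adjusted p under 0.10, 7 without the mice with high Alb (4 KO against 6 WT), and 107 to 680 when single mice were left out (107 without KO mouse 6, 680 without KO mouse 8). Centring the arrays moved the higher share among changed genes to 65.3%, from 83.5%, and quantile normalization to 72.1%. With the replicate block 213 genes and 1 member changed, and 4 of 16 mice correlated best with the mouse of their own number. Over 27 settings 20 of 34 members kept their direction and side of the threshold. In 11 members the sign turned somewhere, none of them above 0.11 in size in the reported fit. Acsl4 was -0.046 with centring, -0.025 with quantile normalization, -0.016 with array weights and -0.014 without the mice with high Alb. Eci1 was -0.031 with centring, -0.0035 with array weights, -0.032 and -0.012 with the slow fibre and hepatocyte covariates and -0.16 without the mice with high Alb. Eci2 was -0.0035 with centring. Without the mice with high Alb Eci2 was -0.060, Acot1 -0.059, Mlycd -0.12 and Ech1 -0.065. With single mice left out Acsl4 ran from -0.025 to 0.029, Acot2 from -0.12 to 0.081, Acadm from -0.069 to 0.0053, Acads from -0.084 to 0.028, Eci1 from -0.033 to 0.091, Etfb from -0.049 to 0.026 and Ppara from -0.091 to 0.036. The cause was not tested. Dim genes such as Acot1 and Hadhb, close to the array median, are measured least well, and Acot11 is also among the dimmer members.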
